A study of Caenorhabditis elegans with 8 samples.

Results

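Gene expression in *hpl-2; his-24* double mutants was compared with that in *hpl-1; hpl-2* double mutants, 2 arrays of each, which are 4 of the 8 arrays in the series. The 4 arrays were taken by the genotype in their labels, where the alleles are tm1489 for *hpl-2*, ok1024 for *his-24* and tm1624 for *hpl-1*. Both strains are labelled as *hpl-2* mutants, so the comparison asks what differs between animals that have also lost the linker histone HIS-24 (*hpl-2; his-24*) and animals that have also lost the second HP1 protein, HPL-1 (*hpl-1; hpl-2*). The labels give N2 as the strain and the whole organism as the tissue. Each array held RNA pooled from 80 to 100 animals raised at 21°C. The labels give L4 together with young adult as their stage, and the study's methods give L4. The other 4 arrays of the series, labelled *hpl-1 his-24* and *hpl-2; hpl-1 his-24*, entered the fit as further genotypes and are cited below only for their levels. No wild-type array was used here, so higher and lower always refer to one double mutant relative to the other.

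Heterochromatin protein 1 (HP1) binds histone H3 methylated at lysine 9 and compacts chromatin. *C. elegans* has a pair of HP1 proteins, HPL-1 and HPL-2, which overlap in function in larval and vulval development. Linker histones (H1) bind the DNA between nucleosomes. HIS-24 is an H1 variant with a known role in germline silencing, and Hox genes are classical targets of Polycomb repression, which acts through methylation of histone H3 at lysine 27.

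Signals are given as the log2 of the background-subtracted intensity relative to the 75th percentile of the same array, so that 0 is the level of a bright but not extreme probe. A difference is the mean of the *hpl-2; his-24* arrays minus the mean of the *hpl-1; hpl-2* arrays. Of 20113 gene identifiers, 17092 were above background in at least 1 genotype and entered the two-sided limma test, where p values were adjusted over all of them by the Benjamini-Hochberg method. Called genes had an adjusted p under 0.05 together with a log2 difference beyond 1.5 in either direction. The 2 *hpl-2; his-24* arrays correlated across genes at r = 0.986 and the 2 *hpl-1; hpl-2* arrays at r = 0.997. The *hpl-2; his-24* replicates lay over 1 log2 unit apart for 6.21% of the tested genes, the *hpl-1; hpl-2* replicates for 0.579%. The *hpl-2; his-24* arrays shared a slide and a scan day with no other genotype, so slide, scan day and genotype cannot be told apart in any value below. On the *hpl-2; his-24* arrays 84.6% and 84.7% of probes exceeded background clearly, and on the *hpl-1; hpl-2* arrays 80% and 78.5%. The smallest two-sided p that exact permutation of 2 arrays against 2 allows is 0.333, and limma draws its spread from all 8 arrays. The fit gives each gene the same spread in every genotype. SEs and adjusted p values can therefore be too small for genes that vary mainly between the *hpl-2; his-24* arrays.

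The deleted genes were read first, as a check of the labels. The transcript of *his-24* (M163.3, chromosome X) had log2 signals of -10.26 and -10.28 in *hpl-2; his-24* animals, against 0.31 and 0.46 in *hpl-1; hpl-2* animals. It was not well above background on either *hpl-2; his-24* array, and so was lower there by at least 388-fold. The reverse held for *hpl-1* (K08H2.6, chromosome X), whose signals were -0.49 and -0.65 in *hpl-2; his-24* animals and -9.04 and -8.81 in *hpl-1; hpl-2* animals, at least 66.7-fold higher in *hpl-2; his-24*. Both genes matched the labels of these 4 arrays. Under the label *hpl-1 his-24*, however, *hpl-1* gave -0.36 and -0.30, and under the label *hpl-2; hpl-1 his-24* it gave -0.60 and -0.53. These levels go against the *hpl-1* part of those labels, and the 4 arrays are therefore called by their labels only. The shared deletion was read with 2 *hpl-2* identifiers, both of which were above background on all 4 arrays. For K01G5.2a the signals were -1.22 and -1.12 in *hpl-2; his-24* animals and -0.85 and -0.78 in *hpl-1; hpl-2* animals, a log2 difference of -0.35 (SE 0.09, adjusted p = 0.0183). For K01G5.2b they were 0.04 and 0.19 in *hpl-2; his-24* animals and 0.33 and 0.52 in *hpl-1; hpl-2* animals, a difference of -0.31 (SE 0.11, adjusted p = 0.0532). Whether these probes lie inside the deleted stretch is not known here, so they check little.

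A neighbour of *his-24* on chromosome X differed as well. *ztf-14* (M163.2), a zinc finger gene that adjoins *his-24* in the reference gene order, had signals of -2.35 and -2.50 in *hpl-2; his-24* animals, against -8.43 and -8.37 in *hpl-1; hpl-2* animals. It was at least 18.4-fold higher in *hpl-2; his-24*. Its probe was dark only on the *hpl-1; hpl-2* arrays: those labelled *hpl-2; hpl-1 his-24* gave -2.73 and -2.55 and those labelled *hpl-1 his-24* gave -2.26 and -2.45.

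**Figure D1:**
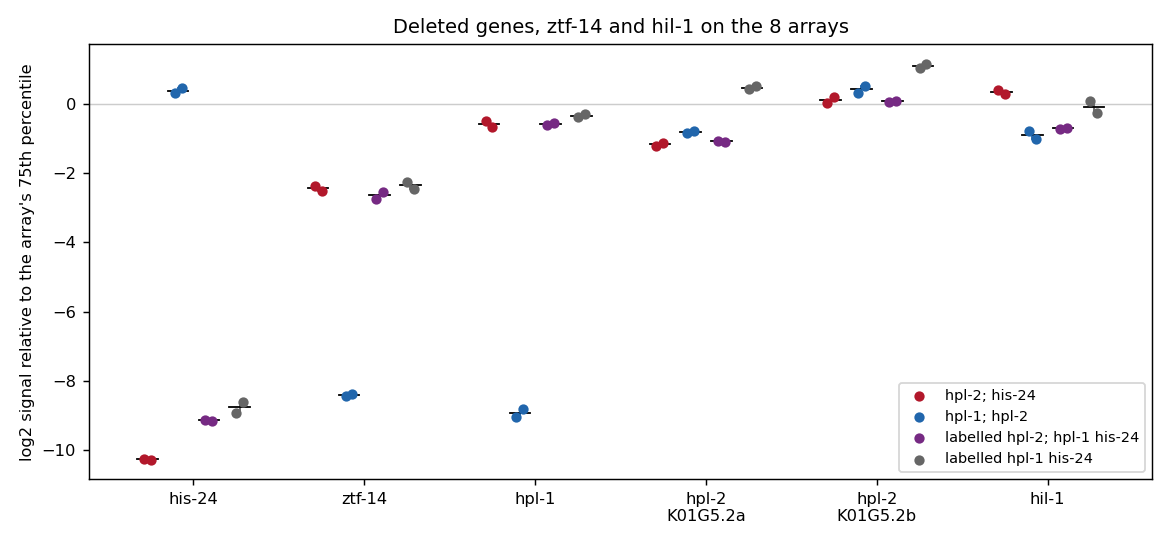
Log2 signal relative to the array's 75th percentile (vertical axis) for *his-24*, *ztf-14*, *hpl-1*, both *hpl-2* identifiers and *hil-1* on the 8 arrays; each point is an array, short black bars are the means of 2 arrays. *his-24* is dark on every array but the 2 of *hpl-1; hpl-2* and *hpl-1* is dark on those 2 only, as is *ztf-14*.

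Among the remaining linker histone genes, *hil-1* was higher in *hpl-2; his-24* animals. Its signals were 0.40 and 0.28 there, against -0.77 and -1.0 in *hpl-1; hpl-2* animals, a log2 difference of 1.23 (SE 0.14, adjusted p = 0.00111) that stayed below the size needed for a call. The 6 further tested genes of the family, *hil-2* to *hil-7*, had differences between -0.36 and 0.35 and adjusted p values between 0.126 and 0.717, and *hil-8* was too dim to be tested. The summed signal of the list was 58.1 and 60.7 times the 75th percentile level in *hpl-2; his-24* animals and 57.3 and 62 times in *hpl-1; hpl-2* animals. The 2 groups overlapped in this sum.

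The Hox genes, which specify position along the body axis, differed little. None of the 10 tested identifiers of Hox genes and cofactors was called, beside 8.02% of all tested genes, and 4 passed an adjusted p of 0.05, beside 51.5%. *egl-5*, which patterns the tail, gave -4.41 and -4.80 in *hpl-2; his-24* animals and -5.63 and -5.46 in *hpl-1; hpl-2* animals, a log2 difference of 0.94 (SE 0.16, adjusted p = 0.00458). The difference of *egl-5* was 0.30 (adjusted p = 0.0890) with the mean over all its probes in place of the brightest. *nob-1* (Y75B8A.2b), a posterior Hox gene, gave -3.51 and -3.51 in *hpl-2; his-24* animals and -2.55 and -2.60 in *hpl-1; hpl-2* animals, a difference of -0.93 (SE 0.08, adjusted p = 0.000419). *psa-3*, a Hox cofactor of the Meis family, differed by -0.97 (SE 0.16, adjusted p = 0.00393). *mab-5* differed by -0.53 (adjusted p = 0.0478), which missed the threshold without either *hpl-1; hpl-2* array (0.127 and 0.165) and without *hpl-2; his-24* replicate 2 (0.109). *ceh-13*, *lin-39* and *php-3* had differences of 0.29, -0.11 and -0.28 and did not pass, and that of *lin-39* was 0.06 after quantile normalization. Hox transcripts of a few cells are diluted in whole animals, and fewer cells of a type and less RNA per cell cannot be told apart in any result here.

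Genes of the repressive machinery moved by less than the call size. Of 11 tested Polycomb group genes (MES and SOP/SOR), 5 passed the adjusted p and all 5 were higher in *hpl-2; his-24* animals, among 23.5% of all tested genes that passed as higher. *sor-1*, which acts with *sop-2* in Hox repression, was the largest, at -0.57 and -0.66 in *hpl-2; his-24* animals against -1.54 and -1.74 in *hpl-1; hpl-2* animals (log2 difference 1.02, adjusted p = 0.000758). *mes-2*, the H3K27 methyltransferase, differed by 0.42 (adjusted p = 0.0255). Of 25 tested HP1 partner, H3K9 methylation and synMuv B genes, 8 passed as higher and 0 as lower, with differences no larger than 0.53. Of 37 core histone genes, 30 had differences below 0, with a median of -0.29, beside -0.04 over all tested genes. By the adjusted p, 12 were lower and 1 higher, beside 28% and 23.5% of all tested genes. The share that passed as lower was thus near that of all genes, and none was called. The largest core histone difference was that of *his-60*, at -1.44 (adjusted p = 0.00283).

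Across the genome, 421 genes were called higher and 950 lower in *hpl-2; his-24* than in *hpl-1; hpl-2* animals. Together these 1371 are 8.02% of the tested genes, 2.46% called higher and 5.56% called lower, so that 30.7% of the calls were higher. With quantile normalization in place of the 75th percentile the split was 591 higher and 649 lower, 47.7% higher. All 1371 genes had arrays that did not overlap between the genotypes, as did 78.0% of all tested genes. On the adjusted p alone, 51.5% of the tested genes passed, 4015 higher and 4789 lower. The median difference over all tested genes was -0.04, and 0.04 after quantile normalization. Of the calls, 273 higher and 802 lower were well above background on all 4 arrays, and among these 32 rose and 84 fell over 8-fold. A further 125 genes called higher were above background on both *hpl-2; his-24* arrays only, among 854 tested genes with that pattern. Another 35 genes called lower were above background on both *hpl-1; hpl-2* arrays only, among 35 tested genes with that pattern. Another 45 genes called lower were not well above background on any of the 4 arrays, and no fold is given for such genes. The background level used for the bounds, the lowest signal of a probe with every spot well above background, was -8.15 and -8.28 on the *hpl-2; his-24* arrays and -6.76 and -6.51 on the *hpl-1; hpl-2* arrays.

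**Figure D2:**
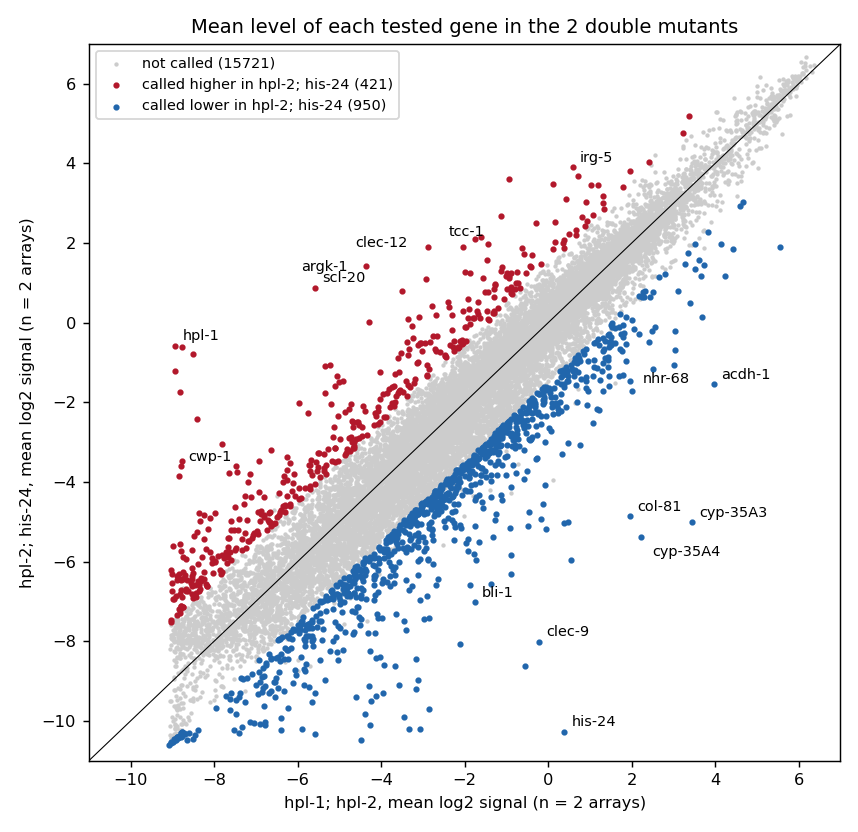
Mean log2 signal of the 17092 tested genes in *hpl-2; his-24* (vertical axis) against *hpl-1; hpl-2* (horizontal axis), n = 2 arrays each; the line marks equal levels, red and blue points are the 421 genes called higher and the 950 called lower. *cyp-35A3* and *col-81* lie above 0, the 75th percentile level, in *hpl-1; hpl-2* and near -5 in *hpl-2; his-24*.

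Among the largest rises, *argk-1*, an arginine kinase that buffers ATP, had signals of 1.68 and 1.18 in *hpl-2; his-24* animals and -4.47 and -4.26 in *hpl-1; hpl-2* animals (log2 difference 5.79, SE 0.17, adjusted p = 1.13e-05). *scl-20*, of the SCP secreted protein family, rose by the most of these at 6.45 (SE 0.56, adjusted p = 0.000394, and 0.0103 with only the 4 arrays in the fit). Its *hpl-2; his-24* arrays were at -0.10 and 1.86, wide apart but both far above the -5.63 and -5.52 of *hpl-1; hpl-2*. The related *scl-24* and *scl-25* rose by 3.77 and 3.87, with signals between 1.94 and 2.31 in *hpl-2; his-24* animals and between -1.80 and -1.56 in *hpl-1; hpl-2* animals. Of 23 tested scl genes, grouped after their values were seen, 4 were called higher (17.4%) and 5 lower (21.7%). Over all tested genes the shares were 2.46% and 5.56%. *cpt-3*, a carnitine palmitoyl transferase of fatty acid import into mitochondria, gave -0.49 and 0.50 in *hpl-2; his-24* animals and -4.37 and -4.19 in *hpl-1; hpl-2* animals (difference 4.29). *lips-11*, a lipase-like gene, rose by 4.29 as well. The other large rises were *clec-12* (4.79), *cwp-2* (4.15), *clx-1* (4.02), *tcc-1* (3.95), *fipr-23* (3.56) and *oac-32* (3.51), and among genes without a symbol D1086.3 (4.53), F26F2.2 (4.26) and the unnamed probe A_12_P106748 (3.96). Every one of these genes was above background on all 4 arrays and did not overlap between the genotypes, as the choice of the largest rises required.

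Among the largest falls, *cyp-35A3*, a cytochrome P450 of the intestine, had signals of -4.60 and -5.42 in *hpl-2; his-24* animals and 3.46 and 3.45 in *hpl-1; hpl-2* animals, a 354-fold difference (log2 -8.47, SE 0.24, adjusted p = 9.56e-06). *cyp-35A4* gave -5.34 and -5.40 in *hpl-2; his-24* animals and 2.22 and 2.23 in *hpl-1; hpl-2* animals, 194-fold lower. *clec-9*, a C-type lectin, gave -7.73 and -8.29 in *hpl-2; his-24* animals and -0.22 and -0.20 in *hpl-1; hpl-2* animals (-7.80, adjusted p = 4.2e-06). *col-81*, a cuticle collagen, gave -5.0 and -4.70 in *hpl-2; his-24* animals and 1.93 and 2.00 in *hpl-1; hpl-2* animals (-6.82, SE 0.12). *acdh-1*, an acyl-CoA dehydrogenase of propionate breakdown, gave -1.85 and -1.23 in *hpl-2; his-24* animals and 3.83 and 4.12 in *hpl-1; hpl-2* animals (-5.51, SE 0.23, adjusted p = 3.7e-05). *stdh-2*, a steroid dehydrogenase family gene, fell by 4.96, and the uncharacterised Y45G12C.4, E01G4.6 and ZK218.5 fell by 6.51, 5.49 and 5.18. The remaining 6 of the 12 largest falls with a symbol were the collagens *col-120*, *col-88*, *bli-1*, *col-133*, *col-60* and *col-137*.

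Some genes were measured in only 1 of the double mutants. Beside *hpl-1* and *ztf-14*, *clec-101* was at least 29.9-fold higher in *hpl-2; his-24*, *clec-58* at least 9.02-fold, the male neuron gene *cwp-1* at least 8.20-fold and *mpst-2*, a mercaptopyruvate sulfurtransferase, at least 7.26-fold. The *hpl-2; his-24* arrays of *clec-101* were far apart, at 0.18 and -3.64, against -8.90 and -8.73 in *hpl-1; hpl-2*. In the other direction, beside *his-24*, *abu-10* was lower by at least 19.2-fold, *idpb-5* at least 15.7-fold, the fatty acid binding protein gene *lbp-8* at least 15.2-fold, *nspb-6* at least 14.3-fold and *vmo-1* at least 12.3-fold. *abu-10* belongs to a family first described as activated by unfolded proteins.

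**Figure D3:**
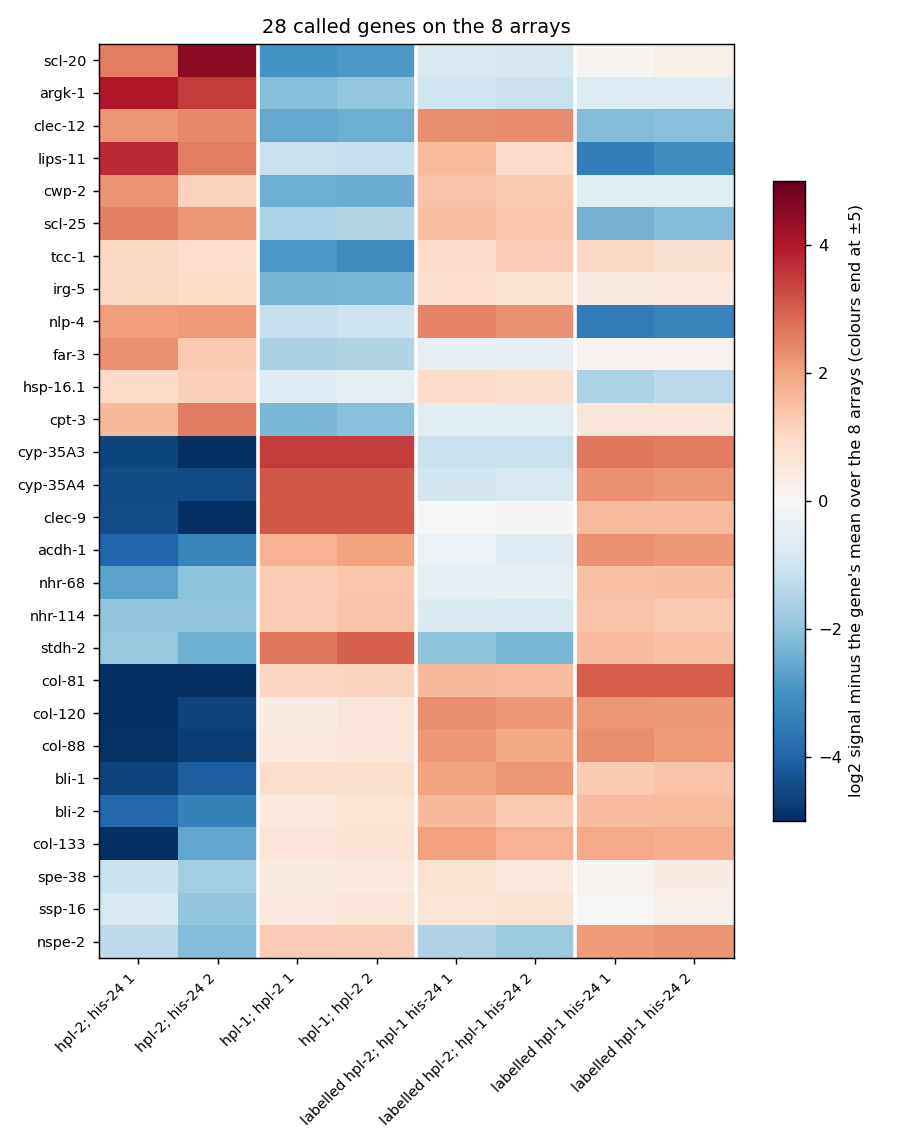
Log2 signal of 28 called genes on the 8 arrays, as the difference from each gene's mean over the 8 (colour, which ends at 5 units either way); columns run from *hpl-2; his-24* to the arrays with the label *hpl-1 his-24*. *tcc-1* and *irg-5* are low on the *hpl-1; hpl-2* arrays alone, whereas the collagens are low on the *hpl-2; his-24* arrays alone.

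The cuticle is an extracellular matrix of collagens, secreted by the epidermis anew at each moult in gene-specific waves. Of 166 tested cuticle collagen genes, 40 were called lower in *hpl-2; his-24* animals and 4 higher, which is 24.1% lower beside 5.56% of all tested genes. Their median log2 difference was -0.89, beside -0.04 over all tested genes. *bli-1* and *bli-2*, collagens of the adult cuticle, gave -7.28 and -6.77 (*bli-1*) and -5.42 and -4.89 (*bli-2*) in *hpl-2; his-24* animals. In *hpl-1; hpl-2* animals they gave -1.72 and -1.78 (*bli-1*) and -0.98 and -0.82 (*bli-2*), log2 differences of -5.27 and -4.25. *col-60* had -4.92 on both *hpl-2; his-24* arrays and -0.20 and -0.14 in *hpl-1; hpl-2* animals (-4.76, SE 0.09, adjusted p = 2.02e-06). The log2 difference was -5.41 for *col-120* and -5.40 for *col-88*. The highest rise was that of *col-40*, from a dim level, at -3.75 and -2.62 in *hpl-2; his-24* animals against -6.62 and -6.65 in *hpl-1; hpl-2* animals (3.45, adjusted p = 0.00287).

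The collagens also varied widely between the *hpl-2; his-24* arrays. For *col-133* those arrays were at -7.03 and -3.34, against -0.10 and -0.02 in *hpl-1; hpl-2* animals (-5.13, SE 1.04, adjusted p = 0.00799), and for *col-49* they were at -9.95 and -7.28, against -0.58 and -0.51, with only 1 of the *hpl-2; his-24* arrays above background. The median difference between replicates over the list was 0.67 log2 units in *hpl-2; his-24* and 0.14 in *hpl-1; hpl-2*, and 62 collagens lay over 1 unit apart in *hpl-2; his-24* against 1 in *hpl-1; hpl-2*. Without *hpl-2; his-24* replicate 1 the list had 26 calls lower, and without replicate 2 it had 68. The abundant collagens did not follow the list, since its summed signal was 1390 and 1780 in *hpl-2; his-24* animals and 1440 and 1830 in *hpl-1; hpl-2* animals, in units of the 75th percentile level.

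The hedgehog-related genes, whose secreted products act in moulting and cuticle formation in nematodes, had 10 lower and 4 higher calls among 79 tested, 12.7% and 5.06%, beside 5.56% lower and 2.46% higher over all tested genes. *wrt-6* gave -3.81 and -3.84 in *hpl-2; his-24* animals and -1.56 and -1.65 in *hpl-1; hpl-2* animals (-2.23), and *grl-21* fell by 3.23, while *grl-9* rose by 2.08. Of 31 tested astacin metalloproteases, 5 were called lower (16%) and 1 higher (3.2%). Only 2 were lower with quantile normalization, and 1 with normexp background correction and likewise with the authors' value table. The median difference of the astacin list was -0.55, and it was -0.40 without *hpl-2; his-24* replicate 1 and -0.87 without replicate 2. The summed signal of the list was higher in *hpl-2; his-24* animals, at 21.7 and 15.7, against 11 and 10.9 in *hpl-1; hpl-2* animals. *nas-38* fell by 2.89 with *hpl-2; his-24* arrays at -6.77 and -5.21, against -3.17 and -3.04 in *hpl-1; hpl-2* animals, and *nas-5* rose by 1.84. Of 79 other moulting and epidermal matrix genes, 5 were lower (6.33%) and 2 higher (2.53%), near the shares over all tested genes, and 8 were lower without *hpl-2; his-24* replicate 2. The cuticlin genes *cut-4* (-2.16) and *cutl-18* (-2.48) were among those lower. Of 8 epidermis markers none was called, and the list showed no common direction. Differences were above 0 for 5 and below 0 for 3, with a median of 0.01. By the adjusted p, 1 passed as higher and 1 as lower, beside 23.5% and 28% of all tested genes. The largest difference among these markers was that of *dpy-7*, a collagen. It gave -1.36 and -1.0 in *hpl-2; his-24* animals and 0.05 and -0.04 in *hpl-1; hpl-2* animals (-1.18, adjusted p = 0.00127).

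**Figure D4:**
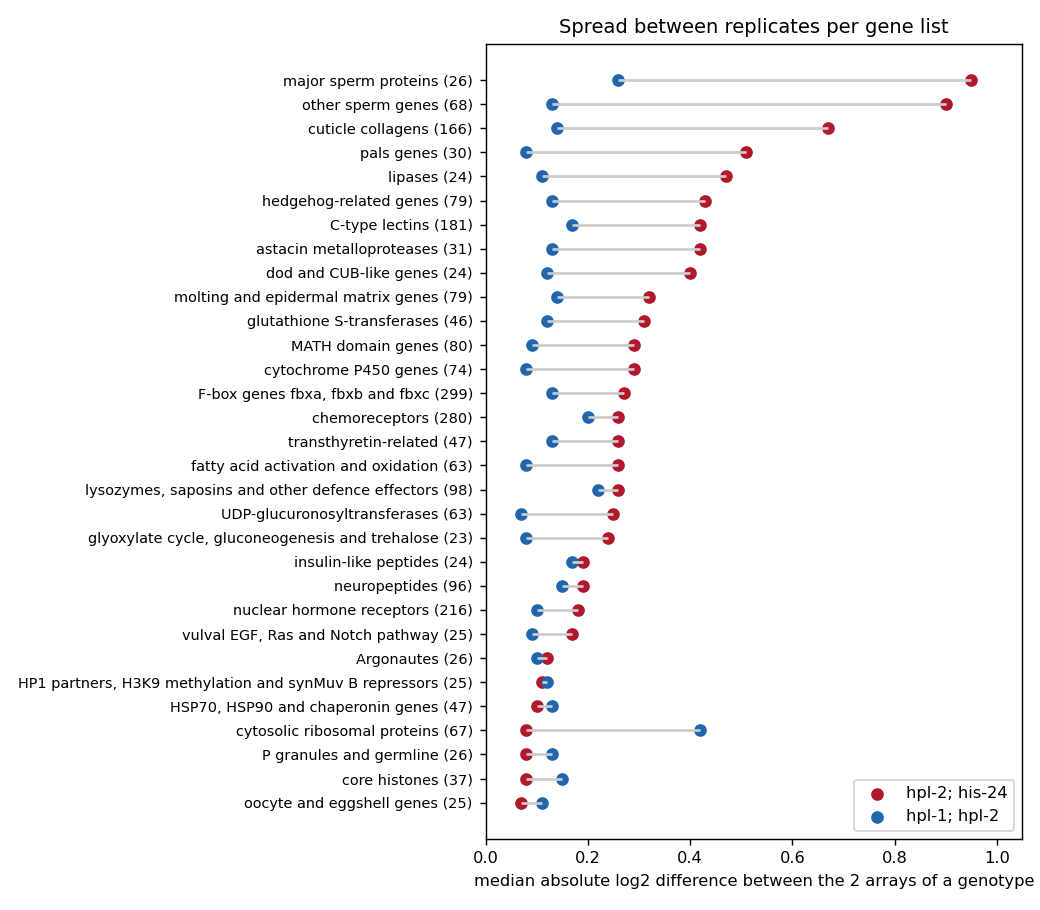
Median absolute log2 difference between the 2 arrays of a genotype (horizontal axis) for each gene list with at least 20 tested members (number in parentheses), without the lists added after values were seen. Among the lists drawn, major sperm proteins, other sperm genes and collagens have the widest gaps in *hpl-2; his-24*, 0.95, 0.90 and 0.67, against 0.26, 0.13 and 0.14 in *hpl-1; hpl-2*.

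Sperm genes were lower in *hpl-2; his-24* animals. Of 68 tested sperm genes other than major sperm proteins, 20 were called lower and 0 higher (29.4% lower beside 5.56% of all tested genes), 48 passed the adjusted p as lower, and 63 had differences below 0. *spe-11*, which supplies a paternal factor to the egg, gave -1.66 and -2.60 in *hpl-2; his-24* animals and -0.50 and -0.46 in *hpl-1; hpl-2* animals (-1.65, adjusted p = 0.00418). *spe-38*, needed for fertilization, gave -7.39 and -8.04 in *hpl-2; his-24* animals and -5.87 and -5.77 in *hpl-1; hpl-2* animals (-1.90). *ssp-16* and *ssq-3*, of sperm-specific gene families, fell by 1.96 and 1.81. Of 34 tested genes of the nspa to nspe families, grouped after their values were seen, 6 were called lower (17.6%) and 3 higher (8.82%). Over all tested genes the shares were 5.56% and 2.46%. The linked *nspe-2* and *nspe-7* fell by 3.01 and 2.64, and *nspe-3*, which was dark in *hpl-2; his-24* animals, was lower by at least 5.03-fold. For *nspe-2* the signals were -3.96 and -4.81 in *hpl-2; his-24* animals and -4.19 and -4.48 under the label *hpl-2; hpl-1 his-24*, which overlapped. None of the 26 major sperm protein genes was called, and 1 passed the adjusted p as lower, beside 28% of all tested genes. All 26 had differences below 0, with a median of -0.45. That median was -1.0 without *hpl-2; his-24* replicate 1 and -0.06 without replicate 2. Their summed signal was 584 and 330 in *hpl-2; his-24* animals and 542 and 669 in *hpl-1; hpl-2* animals, and the groups overlapped. Here too the *hpl-2; his-24* arrays differed. The summed signal of the 68 genes was 60.6 and 34.3 in *hpl-2; his-24* animals and 97.4 and 106 in *hpl-1; hpl-2* animals, and without *hpl-2; his-24* replicate 1 the list had 46 calls, without replicate 2 it had 5.

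The rest of the germline list showed no calls. Among 26 P granule and germline genes, 17 genes of the meiotic chromosome axis and 25 oocyte and eggshell genes, none was called, and all were above background on all 4 arrays. The largest differences in these lists were those of *gld-2* (-1.36, ZC308.1c), *htp-2* (-0.70) and *mex-1* (-1.26). Summed oocyte and eggshell signal was 356 and 344 in *hpl-2; his-24* animals and 303 and 345 in *hpl-1; hpl-2* animals, and the groups overlapped. Of 7 yolk protein identifiers, which mark adult hermaphrodites, none was called and 4 passed the adjusted p as higher, beside 23.5% of all tested genes. *vit-1* gave 5.88 and 6.0 in *hpl-2; his-24* animals and 4.96 and 5.05 in *hpl-1; hpl-2* animals (0.93, adjusted p = 0.000768). *alg-3* and *alg-4* (ZK757.3a.1), Argonautes of sperm development, differed by -1.30 and -1.20, and none of 26 Argonaute identifiers was called.

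Genes of male-specific neurons were higher in *hpl-2; his-24* animals. These neurons serve mate finding and copulation, and their genes code for the polycystins LOV-1 and PKD-2 and for coexpressed secreted proteins. Of 7 tested genes, 5 were called higher and 0 lower, beside 2.46% of all tested genes called higher. Only 3 of the 7 were above background on all 4 arrays, of which 1, *cwp-2*, was called, and the other calls could pass the filter only through genotypes where the gene was high. *cwp-2* gave -0.53 and -1.61 in *hpl-2; his-24* animals and -5.19 and -5.25 in *hpl-1; hpl-2* animals (4.15, SE 0.31, adjusted p = 0.000244). *lov-1* gave -3.67 and -5.08 in *hpl-2; his-24* animals and -7.07 and -7.17 in *hpl-1; hpl-2* animals, where it was not above background, so that it was at least 4.79-fold higher (adjusted p = 0.00412). *pkd-2*, above background on 1 of the 2 *hpl-1; hpl-2* arrays, rose by 1.72. *cwp-1* and *clec-164* were dark in *hpl-1; hpl-2* animals, and *clec-164* was at least 1.11-fold higher. The summed signal of the 9 listed genes was 1.09 and 0.516 in *hpl-2; his-24* animals and 0.109 and 0.114 in *hpl-1; hpl-2* animals. It was 0.648 and 0.608 under the label *hpl-2; hpl-1 his-24* and 0.178 and 0.17 under the label *hpl-1 his-24*. The *hpl-2; his-24* array with the higher male neuron sum was also the one with the higher sperm sum. The part of male animals in the pools in these differences was not tested.

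**Figure D5:**
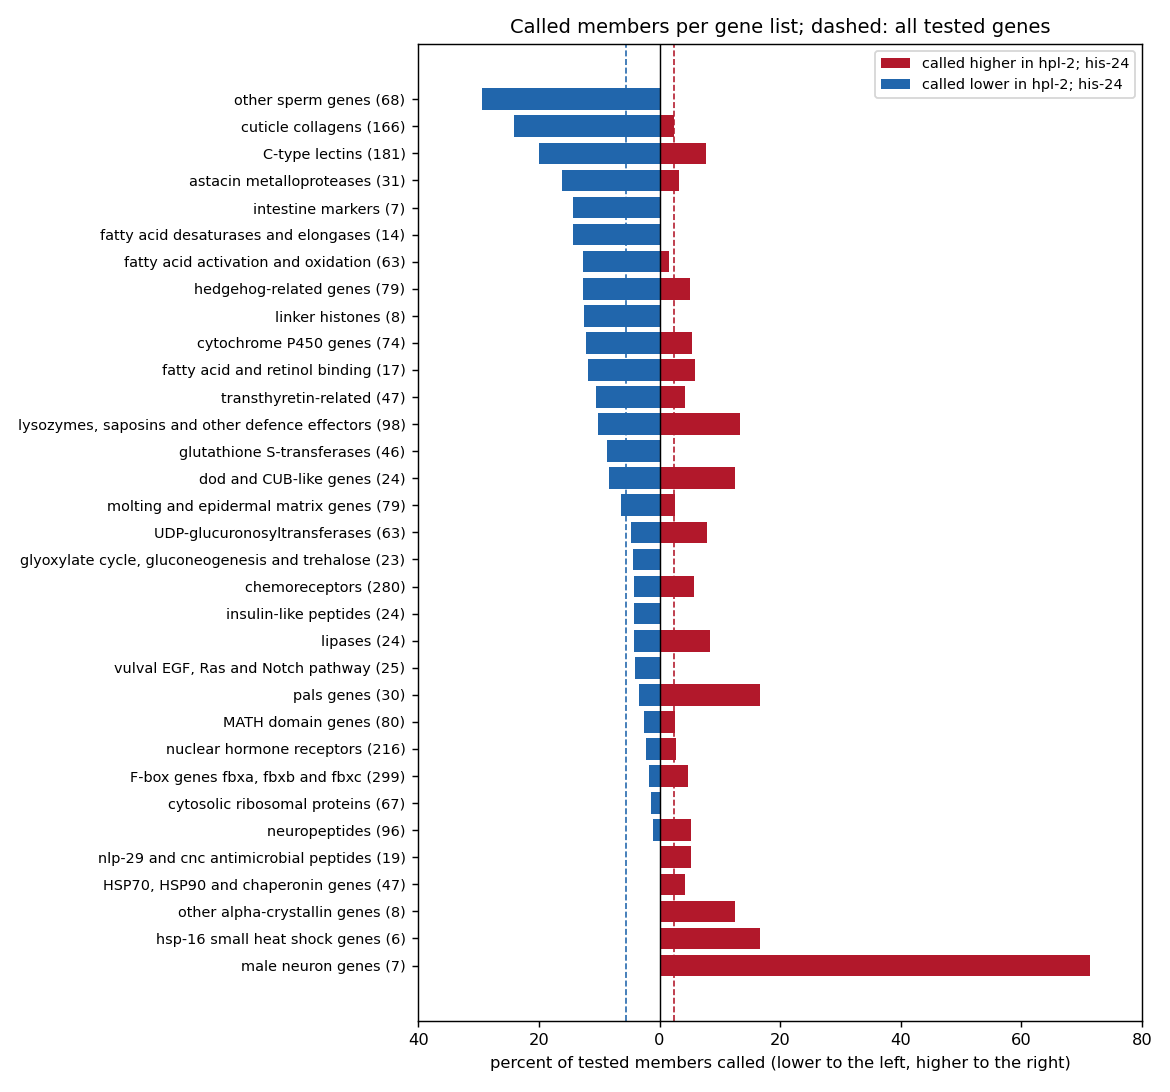
Percent of the tested members of each gene list called higher (right) or lower (left) in *hpl-2; his-24*, for the lists with at least 6 tested members (number in parentheses) and a call, without the 4 lists added after values were seen; dashed lines give 2.46% and 5.56%, the shares among all tested genes. Among the lists drawn, other sperm genes (29.4%), collagens (24.1%) and C-type lectins (19.9%) have the highest shares of lower calls.

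Of 74 tested cytochrome P450 genes, which oxidise foreign compounds and lipids, 9 were called lower (12.2%) and 4 higher (5.41%) in *hpl-2; his-24* animals, beside 5.56% and 2.46% of all tested genes, and with normexp background correction 1 was higher. Beside *cyp-35A3* and *cyp-35A4*, *cyp-35A2* gave 1.02 and 1.31 in *hpl-2; his-24* animals and 4.21 and 4.28 in *hpl-1; hpl-2* animals (-3.08, SE 0.12, adjusted p = 2.37e-05). *cyp-35C1* fell by 2.28 and *cyp-13A5* by 2.38, and *cyp-33B1* fell by 3.45. *cyp-35B1*, in contrast, was higher, at -0.71 and -0.23 in *hpl-2; his-24* animals against -2.03 and -2.19 in *hpl-1; hpl-2* animals (1.64), and *cyp-35A5* differed by only -0.89 (adjusted p = 0.000794). The median of the list was 0.27, above 0, while its summed signal was 39.8 and 38.4 in *hpl-2; his-24* animals and 77.7 and 79.9 in *hpl-1; hpl-2* animals. Near-identical members of a family can share probe signal, which was not tested for the core histone, cyp-35A, msp, scl or fipr genes.

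Of 63 tested UDP-glucuronosyltransferases, which conjugate such compounds, 5 were called higher (7.94%) and 3 lower (4.76%), the second near the 5.56% over all tested genes. Without *hpl-2; his-24* replicate 2, and likewise without *hpl-1; hpl-2* replicate 2, 5 were lower. *ugt-25* gave 1.41 and 1.08 in *hpl-2; his-24* animals and -0.93 and -0.84 in *hpl-1; hpl-2* animals (2.13), and *ugt-36* fell by 3.20. Of 46 glutathione S-transferases, 4 were called lower (8.70%; 2 with normexp) and 0 higher, with differences between -1.87 (*gst-2*) and -1.53 (*gst-25*, -1.29 after quantile normalization). Among 216 tested nuclear hormone receptors, 5 were lower and 6 higher, which is 2.31% and 2.78%, beside 5.56% and 2.46% of all tested genes. None of the 6 called higher was above background on all 4 arrays, and 1 was called with normexp background correction. *nhr-68* gave -2.02 and -1.39 in *hpl-2; his-24* animals and 1.94 and 2.06 in *hpl-1; hpl-2* animals (-3.71, SE 0.20, adjusted p = 7.38e-05). *nhr-114* gave -2.15 on both *hpl-2; his-24* arrays and 1.08 and 1.26 in *hpl-1; hpl-2* animals (-3.33, SE 0.10, adjusted p = 1.12e-05). *nhr-155* and *nhr-235* were above background in *hpl-2; his-24* animals and not in *hpl-1; hpl-2* animals.

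Inducible chaperone genes were higher in *hpl-2; his-24* animals. *hsp-70* (C12C8.1), a heat-inducible cytosolic chaperone, gave 1.76 and 2.00 in *hpl-2; his-24* animals and -0.61 and -0.63 in *hpl-1; hpl-2* animals (2.50, SE 0.11, adjusted p = 4.13e-05). F44E5.4, another inducible HSP70 gene, gave 3.39 and 3.52 in *hpl-2; his-24* animals and 0.96 and 1.07 in *hpl-1; hpl-2* animals (2.44). Of 47 tested HSP70, HSP90 and chaperonin genes these 2 were called, while 23 passed the adjusted p as higher and 5 as lower, beside 23.5% and 28% of all tested genes. Of the 6 small heat shock genes of the *hsp-16* family, 5 passed the adjusted p as higher and *hsp-16.1* was called. *hsp-16.1* gave 1.98 and 2.17 in *hpl-2; his-24* animals and 0.30 and 0.47 in *hpl-1; hpl-2* animals (1.69, SE 0.13). The *hsp-16* sum was 15 and 15.6 in *hpl-2; his-24* animals, against 5.68 and 6.29 in *hpl-1; hpl-2* animals. It was 15.5 and 15.2 under the label *hpl-2; hpl-1 his-24* and 2.46 and 2.85 under the label *hpl-1 his-24*. Of 11 superoxide dismutase, catalase and metallothionein genes, 6 passed the adjusted p as higher and none was called. *hsp-12.3*, a small alpha-crystallin gene, rose by 1.5, just past the call size, and by 1.25 without *hpl-2; his-24* replicate 2. It was the only call among 8 alpha-crystallin genes outside the *hsp-16* family. Of these, 5 had differences below 0 (median -0.17), and by the adjusted p 2 passed as higher and 3 as lower. Their summed signal was 62.1 and 63.9 in *hpl-2; his-24* animals and 53.0 and 68.4 in *hpl-1; hpl-2* animals, and the groups overlapped.

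Genes of defence against microbes moved in both directions. Among 98 tested lysozymes, saposins and other effectors, 13 were called higher (13.3%) and 10 lower (10.2%), beside 2.46% and 5.56% of all tested genes. The infection response genes *irg-2*, *irg-4*, *irg-5* and *irg-6*, which are induced by pathogens, were all higher. *irg-5* gave 3.92 and 3.89 in *hpl-2; his-24* animals and 0.57 and 0.61 in *hpl-1; hpl-2* animals (3.32, SE 0.09, adjusted p = 9.48e-06), and *irg-4* gave 3.11 and 3.12 in *hpl-2; his-24* animals and 0.37 and 0.51 in *hpl-1; hpl-2* animals (2.68). The other 4 tested genes named irg, grouped after their values were seen, had differences between -0.09 and 0.63. The antimicrobial peptide genes *fipr-23* and *fipr-24* rose by 3.56 and 3.16, and the thaumatin-like *thn-3* by 2.75. Of the lysozyme genes, *lys-4* gave -0.40 and -0.02 in *hpl-2; his-24* animals and 2.88 and 3.19 in *hpl-1; hpl-2* animals (-3.24), its neighbours *lys-5* and *lys-6* fell by 2.41 and 3.34, and *lys-9* gave -9.07 and -7.82 in *hpl-2; his-24* animals against -3.24 and -3.09 in *hpl-1; hpl-2* animals, above background on 1 of the 2 *hpl-2; his-24* arrays.

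C-type lectins are a family of secreted sugar-binding proteins, many of which respond to infection. Of 181 tested genes, 36 were called lower (19.9%) and 14 higher (7.73%), beside 5.56% and 2.46% of all tested genes. The median difference was -0.56, but -0.25 with quantile normalization, -0.12 with normexp background correction and -0.09 with the authors' value table. Under these 3 alternatives 24, 20 and 20 were called lower and 17, 10 and 9 higher. Among genes above background on all 4 arrays, 24 were lower and 5 higher, and some of the remaining calls rest on dim probes. *clec-12* gave 1.82 and 2.01 in *hpl-2; his-24* animals and -2.93 and -2.83 in *hpl-1; hpl-2* animals (4.79, SE 0.10, adjusted p = 3.75e-06). *clec-47* gave -0.05 and -0.90 in *hpl-2; his-24* animals and 2.25 and 2.56 in *hpl-1; hpl-2* animals (-2.88). The neighbours *clec-54*, *clec-56*, *clec-57* and *clec-227* fell together, by 1.84 to 3.84. Of 30 tested pals genes, some of which respond to intracellular infection, 5 were called higher (16.7%) and 1 lower (3.33%), and 3 were higher without *hpl-2; his-24* replicate 2. *pals-5*, a reporter gene of that response, gave -2.77 and -2.22 in *hpl-2; his-24* animals and -4.63 and -4.71 in *hpl-1; hpl-2* animals (2.17, adjusted p = 0.000505), while the arrays with the label *hpl-1 his-24* were lower still at -8.51 and -8.72. F-box genes had 14 higher (4.68%) and 5 lower (1.67%) calls among 299, and 3 and 0 with normexp background correction. The lower calls of this list were 9 without *hpl-2; his-24* replicate 1 and 2 without *hpl-1; hpl-2* replicate 2. MATH domain genes had 2 calls each way among 80 (2.50%), and 6 lower without *hpl-2; his-24* replicate 2. Of 24 dod and CUB-like genes, 3 were higher (12.5%) and 2 lower (8.33%), and *dod-22*, a gene downstream of the insulin pathway, gave 0.00 and 0.37 in *hpl-2; his-24* animals and -2.82 and -2.57 in *hpl-1; hpl-2* animals (2.88).

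Of 63 tested identifiers of fatty acid activation and oxidation, 8 were called lower (12.7%) and 1, *cpt-3*, higher (1.59%), beside 5.56% and 2.46% of all tested genes. Of 24 lipases, 2 were higher and 1 lower, and 4 were higher without *hpl-2; his-24* replicate 1 and 5 lower without replicate 2. Both *acdh-2* identifiers fell, C17C3.12c.1 with -6.97 and -6.22 in *hpl-2; his-24* animals and -2.73 and -2.65 in *hpl-1; hpl-2* animals (-3.91). The count lower in the oxidation list was 5 without *hpl-2; his-24* replicate 2 and 4 without *hpl-1; hpl-2* replicate 2. *elo-2*, a fatty acid elongase, gave 1.94 and 2.02 in *hpl-2; his-24* animals and 3.54 and 3.5 in *hpl-1; hpl-2* animals (-1.54), and *elo-3* fell by 2.08. These were the 2 calls among 14 desaturases and elongases, of which 4 were lower without *hpl-2; his-24* replicate 2 and likewise without *hpl-1; hpl-2* replicate 1. *hphd-1*, an enzyme of the same propionate pathway as *acdh-1*, gave 1.75 and 2.20 in *hpl-2; his-24* animals and 4.10 and 4.18 in *hpl-1; hpl-2* animals (-2.16, adjusted p = 0.000203). In a list of 17 genes of propionate breakdown and the vitamin B12 response, drawn up after values were seen, 5 were called lower. That is 29.4%, beside 5.56% of all tested genes, and 0 were called higher. The summed signal of this list was 68.8 and 72.8 in *hpl-2; his-24* animals and 111 and 122 in *hpl-1; hpl-2* animals. *hphd-1* was the only call among 23 genes of the glyoxylate cycle, gluconeogenesis and trehalose list. *far-3*, a fatty acid and retinol binding protein gene, rose to 3.96 and 2.99 in *hpl-2; his-24* animals, against 0.06 and 0.19 in *hpl-1; hpl-2* animals (3.35).

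Of 96 tested neuropeptide genes, 5 were called higher (5.21%) and 1 lower (1.04%). Beside these, and beside the calls of the other lists in this paragraph, stand 2.46% higher and 5.56% lower over all tested genes. *nlp-4* gave 0.41 and 0.43 in *hpl-2; his-24* animals and -2.83 and -2.73 in *hpl-1; hpl-2* animals (3.20, SE 0.10, adjusted p = 1.72e-05). *nlp-39* gave 1.47 and 1.68 in *hpl-2; his-24* animals and -1.63 and -1.28 in *hpl-1; hpl-2* animals (3.03), and *nlp-16* rose by 2.29. The gene called lower was *nlp-23* (-2.49). Of all 96, 57 had differences below 0 (median -0.08). By the adjusted p, 27 passed as lower and 13 as higher, beside 28% and 23.5% of all tested genes. Of 24 insulin-like peptide genes, 10 passed the adjusted p as lower and 0 as higher, beside 28% and 23.5% of all tested genes. Only *ins-8* was called (-2.40), and its adjusted p was 0.062 with the 4 arrays alone paired by replicate number. For the insulin list the median was -0.40 here and 0.00 after quantile normalization. Of 47 transthyretin-related genes, 2 were called higher (4.26%) and 5 lower (10.6%). Only 2 were lower with quantile normalization, 2 with normexp and 1 with the authors' value table. The list as a whole lay higher, with a median of 0.25. By the adjusted p, 18 passed as higher and 12 as lower. Its summed signal was 229 and 225 in *hpl-2; his-24* animals and 119 and 136 in *hpl-1; hpl-2* animals. *ttr-5* gave 2.55 and 2.77 in *hpl-2; his-24* animals and 0.78 and 0.83 in *hpl-1; hpl-2* animals (1.86). Chemoreceptor genes were mostly too dim, and 280 of 1112 were tested, of which 16 were higher (5.71%) and 12 lower (4.29%). Restricted to probes that all 4 arrays measured, the calls were 3 higher and 6 lower, and with normexp background correction 1 and 2.

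All 7 intestine identifiers had differences below 0 and 4 passed the adjusted p, beside 28% of all tested genes that passed as lower. *pept-1*, the peptide transporter of the gut, gave -0.49 and -0.07 in *hpl-2; his-24* animals and 2.20 and 2.16 in *hpl-1; hpl-2* animals (-2.46, SE 0.14, adjusted p = 0.000101). *ifb-2* (F10C1.7c.5), an intestinal intermediate filament, gave 2.15 and 2.49 in *hpl-2; his-24* animals and 3.72 and 3.76 in *hpl-1; hpl-2* animals (-1.42), whereas *elt-2*, the main intestinal transcription factor, differed by -0.30 (adjusted p = 0.0231) and the protease gene *asp-1* by -0.01. No call fell among 11 muscle markers, where *myo-1* of the pharynx differed most (-1.33), or among 15 neuron markers, where *unc-47* did (-0.94). Most neuron markers went the other way from *unc-47*, with 11 differences above 0 and 4 below. By the adjusted p, 4 of them passed as higher and 2 as lower. Their summed signal was 16.2 and 15.2 in *hpl-2; his-24* animals and 11.2 and 12.6 in *hpl-1; hpl-2* animals. In the vulval EGF, Ras and Notch list, 1 of 25 genes was called: *sos-1*, the Ras exchange factor, gave -3.23 and -3.16 in *hpl-2; his-24* animals and -0.75 and -0.39 in *hpl-1; hpl-2* animals (-2.62, SE 0.16, adjusted p = 0.00012). Of 67 cytosolic ribosomal protein identifiers, 1 dim one, *rpl-42*, was called lower. The markers' part in the differences above was not tested.

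The other genotypes lay closer to *hpl-1; hpl-2* for most of these genes. For 922 of the 1371 called genes (67.3%), the means of the arrays with the label *hpl-2; hpl-1 his-24* and of those labelled *hpl-1 his-24* were both nearer to *hpl-1; hpl-2* than to *hpl-2; his-24*, beside 49.9% of all tested genes. Both were nearer to *hpl-2; his-24* for 112 (8.17%), beside 18.2% of all tested genes. Among genes called lower the first pattern held for 725 of 950 (76.3%), among genes called higher for 197 of 421 (46.8%). *col-81* showed it, at 2.51 and 2.44 under the label *hpl-2; hpl-1 his-24* and 3.92 and 3.92 under the label *hpl-1 his-24*. For 268 called genes (19.5%) only the arrays with the label *hpl-2; hpl-1 his-24* were nearer to *hpl-2; his-24*. *clec-12* was such a gene, with 1.95 and 1.99 under the label *hpl-2; hpl-1 his-24* and -2.55 and -2.46 under the label *hpl-1 his-24*, and so was *stdh-2*, with -5.70 and -5.99 and with -2.13 and -2.21. *tcc-1* and *irg-5* were low in *hpl-1; hpl-2* alone. *tcc-1*, which codes for a transmembrane and coiled-coil protein, gave 1.97 and 1.85 in *hpl-2; his-24* animals, 1.91 and 2.21 and then 1.98 and 1.77 under the other labels, and -1.94 and -2.14 in *hpl-1; hpl-2* animals. These positions share the arrays of the comparison itself and were not tested. All arrays but those of *hpl-2; his-24* were scanned on the same day. The arrays with the label *hpl-2; hpl-1 his-24* also shared their slides with the *hpl-1; hpl-2* arrays. Slide and scan day therefore cannot be told apart from genotype in these positions.

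The called genes were spread over all 6 chromosomes. The share called was 11.6% on V, 9.79% on IV, 7.93% on II, 6.52% on X, 6.33% on I and 4.19% on III. In the reference gene order, 106 of 15109 placed genes lay in runs of at least 3 adjacent tested genes called the same way, 10 runs higher and 23 lower. The longest was F26F2.1 to F26F2.5 on chromosome V, 5 genes higher by 2.34 to 4.26. The pud genes of chromosome V, *pud-1.1*, *pud-2.1*, *pud-3* and *pud-4*, were all higher, by 1.51 to 2.51. On chromosome IV the run of 4 genes from F55G11.6 to *dod-22* was higher, with F55G11.6 and F55G11.7 dark in *hpl-1; hpl-2* animals, and *lys-4*, *lys-5* and *lys-6* were lower. On chromosome II *col-40*, *lips-11* and *lips-13* were higher by 3.43 to 4.29, with *lips-13* above background on 1 of the 2 *hpl-1; hpl-2* arrays. *nhr-101* and *nhr-68* were lower side by side on chromosome V.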

How the data were processed

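Per the labels, each of the 8 single-colour (Cy3) Agilent arrays held 600 ng of total RNA extracted with Trizol. The authors deposited the scanner output of Agilent Feature Extraction, with intensity values per spot, of which the background-subtracted, processed intensity was used. They also deposited a value table on a log2 scale, which followed the median spot brightness of each array with equal medians across arrays, and which served as an alternative only. The submitters' processing notes name Agilent Feature Extraction and limma, and their versions are not given in the sources used here. RNA of 2 independent biological replicates per genotype was hybridised.

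Control spots and spots marked as outliers were left out, spots of 1 probe were averaged, and each array's 75th percentile was subtracted on the log2 scale (20401 probes, 20113 identifiers, the brightest probe for the 282 identifiers with several). An identifier was kept where some genotype had it well above background on each of its 2 arrays. lmFit and eBayes of limma 3.58.1 (R 4.3.3) were run on all 8 arrays with genotype as the only term (4 residual and 2.43 prior degrees of freedom), and the script was first tested on simulated data. The fold of a gene that was dark (not well above background) in 1 genotype is a bound: the mean of the bright genotype over the mean, per array, of the higher of the gene's own signal and the lowest signal of a probe with every spot well above background. In the filter, by contrast, a probe counted as well above background where at least 50% of its spots were. Arrays limit the precision by their number. Gene symbols and gene order came from RefSeq, assembly WBcel235. The genome build of the probes is not given in the sources used here, and probe and promoter sequences were not used here.

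Named genes were the deleted genes, linker histone and Hox genes, the 12 largest rises and falls above background on all 4 arrays (3 more each way without a symbol), the 6 largest bounds each way, and up to 4 called members of each of 47 gene lists. The genes of the position and run descriptions, and a few members of lists beyond that number, were added after their values were seen. The comparison and the lists were chosen with earlier results of these data known, and 4 further lists were added after values were seen. Samples with the same replicate number did not deviate together (correlation 0.01). Alternatives covered normalization, background, filters, value table, samples, weights, slide, replicate block, probe choice, call rule and each array left out.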

Additional observations from a re-analysis of the deposited data

How the results depend on the processing

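Main counts were 421 genes called higher and 950 lower, and no called gene was called in the opposite direction under any alternative. The sign of the difference was followed for the named genes only, and among the 126 named calls it did not change. The counts were 224 higher and 507 lower with normexp background correction, 420 and 1996 with no filter on dim probes, 273 and 806 with only probes above background on all 4 arrays, and 259 and 424 with the authors' value table. They were 4015 and 4789 on the adjusted p alone, and 2533 and 3554 with a fold of 1.5 on the linear scale. Quantile normalization gave 591 and 649. The share of calls that were higher was 30.7%, and 47.7% with quantile normalization, 37.9% with the value table, 17.4% with no filter. Leaving out each array in turn gave 410 to 489 higher and 754 to 1414 lower, with 1414 without *hpl-2; his-24* replicate 1. With the replicate block, which pairs arrays by number only, the 4 arrays gave 387 higher and 646 lower and the 8 arrays 418 and 952. The block on 4 arrays left 116 of 126 named calls.

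Of the 126 named genes that were called, 104 were called with normexp, 97 with the value table, 121 with quantile normalization and 120 to 123 with 1 array left out. The difference of *lin-39* was 0.06 with quantile normalization and 0.08 with the value table, and that of *hil-4* ran between -0.13 and 0.04 with 1 array left out, being 0.04 without *hpl-1; hpl-2* replicate 2, against -0.11 and -0.05 as reported. The cause was not tested. Collagens called lower numbered 26 to 68 and other sperm genes 5 to 46 with 1 array left out. Sperm genes called lower numbered 13 with quantile normalization, 10 with normexp and 12 with the value table, and male neuron genes called higher 3 with normexp. Dim genes set the limit: 45 genes called lower were above background on none of the 4 arrays.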
